A study of Mus musculus with 20 samples.

Results

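Vascular smooth muscle cells (VSMC) were 84 of the 39117 barcodes that passed the quality filter in the droplet RNA sequencing of mouse dentate gyrus. A barcode was counted as a VSMC when its summed unique molecular identifiers (UMIs) of Acta2, Tagln and Myh11 reached 15, its Cldn5 and Flt1 UMIs (endothelial) stayed under 5, its C1qa and Cx3cr1 UMIs (microglial) stayed under 5 and its Aldoc and Slc1a3 UMIs (astrocytic) stayed under 8. The filter required at least 800 genes and at most 20% of UMIs from the mitochondrial genome. The members were thus chosen by measured values, and the levels of these genes are given as a description only. Pericytes, the other mural cells, served as the comparison: 521 barcodes with at least 6 UMIs of Vtn, Kcnj8, Higd1b and Abcc9, under 15 UMIs of the 3 VSMC genes and the same exclusions.

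All animals carried the strain label C57Bl/JRj. The paper's methods give the strain name in a different form, with a further digit before the letters JRj. Neither genotype nor treatment differed between the groups. Dissected dentate gyri were pooled by age before dissociation, so that each age gave 1 pool: young (3 months, 1 library), middle-age (9 to 11 months, 1 library) and old (16 to 21 months, 2 libraries of the same pool). The pools hold several mice of mixed sex, and the cells were freed by enzymatic digestion and cleared of myelin, which limits them as a census of vessel cells. Separate mice of the same ages gave 16 spatial transcriptomics areas labelled as whole brain, 4 young, 4 middle-age and 8 old, on which each spot is a small region that can hold several cells. With 4 mice per age, old areas share mice. By the paper's methods an area held either 2 anterior sections or 1 posterior section of the hippocampus, so areas of the other ages may share mice as well. The sample titles do not give the position. The libraries held 49936831 to 69890756 UMIs and the areas 34002419 to 91300054.

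VSMC are the contractile cells of arteries, arterioles and veins. They shorten when calcium activates myosin light chain kinase, and they relax through cyclic nucleotides, potassium channels and calcium reuptake into the sarcoplasmic reticulum. Their contractile genes are driven by serum response factor with its cofactor myocardin, which acts through the CArG box in promoters and introns. Pericytes lie on capillaries within the basement membrane that they share with the endothelium, and in brain they carry many transporters.

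The 3 genes of the gate were far higher in the members than elsewhere, as the rule requires. Levels are given in CPM, the UMIs of a gene per 1000000 UMIs of the summed cells. Acta2, smooth muscle alpha-actin, was at 22733 CPM in the young VSMC, 15806 CPM in the middle-age VSMC and 20098 CPM in the old VSMC. In pericytes it was at 7.67, 30.2 and 32.8 CPM, and at 0.739 CPM in the other barcodes, here the kept barcodes that reached neither the VSMC sum of 15 UMIs nor the pericyte sum of 6. Tagln, the actin-binding protein transgelin, was at 12015, 10171 and 12913 CPM, and Myh11, the smooth muscle myosin heavy chain, at 2867, 3012 and 2543 CPM in the same order of ages. The summed marker count of a VSMC ranged from 17 to 500 UMIs with a median of 166.5, and 67 of the 84 cells held 60 or more.

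Few barcodes lay near the boundary. The 5 members just inside had marker sums of 17, 17, 19, 20 and 23 UMIs, and the 5 barcodes just outside had 12, 12, 12, 8 and 6. Of the barcodes that met the exclusions, 3 held from 10 to under 15 marker UMIs, and 6 members held from 15 to under 30. Another 14 barcodes reached the marker sum but failed an exclusion, 6 for endothelial, 9 for microglial and 9 for astrocytic UMIs, with some failing several. No VSMC barcode sequence was shared between libraries, whereas each pair of libraries shared 12 to 50 kept barcodes.

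The pericyte genes of the other gate were present in the VSMC. Vtn, the matrix protein vitronectin, was at 523, 1035 and 921 CPM in young, middle-age and old VSMC against 22341, 22491 and 21721 CPM in pericytes. All 21 Vtn UMIs of the young VSMC came from 1 of the 7 cells. Kcnj8, the pore of the vascular ATP-sensitive potassium channel, was at 49.9, 35.3 and 31.6 CPM against 1500, 1245 and 1340 CPM. Its regulatory subunit Abcc9 had 1 UMI in all VSMC together against 1272 in pericytes. The 17 VSMC with marker sums under 60 UMIs held 325 UMIs of the 4 genes (6830 CPM), of which 235 were Vtn, 76 Higd1b and 13 Kcnj8. The other 67 held 348 (906 CPM), of which 166 were Vtn, 180 Higd1b and 2 Kcnj8. Of the 84 VSMC, 33 (39.3%) also reached the pericyte sum of 6 UMIs and 17 had no UMI of the 4 genes.

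**Figure D1:**
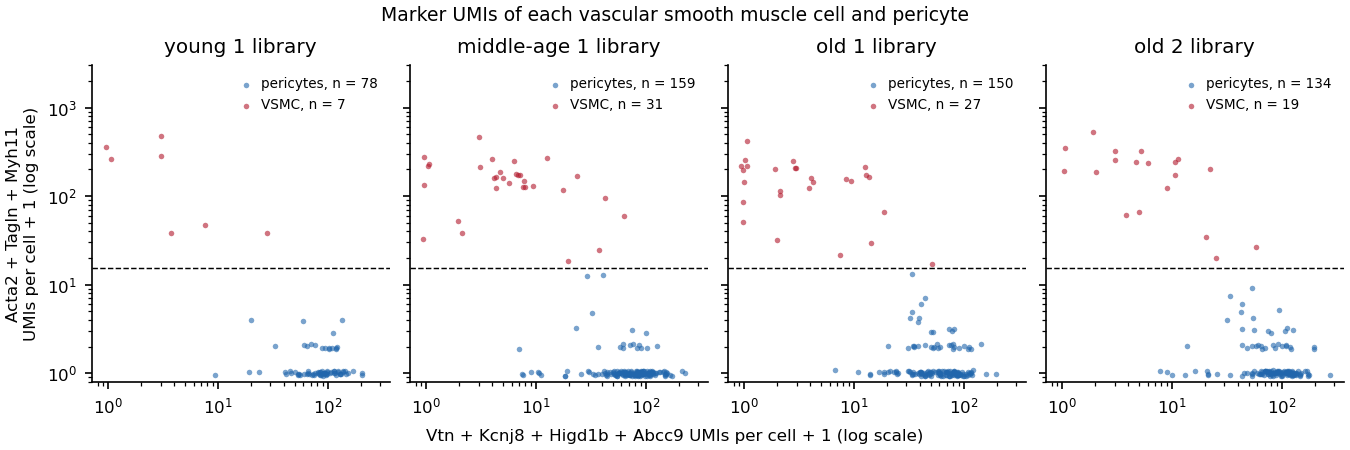
Each point is 1 barcode, VSMC in red and pericytes in blue, with 1 panel per library. The horizontal axis gives the UMIs of Vtn, Kcnj8, Higd1b and Abcc9 per cell and the vertical axis those of Acta2, Tagln and Myh11, both plus 1 on log scales with a small seeded spread; the dashed line marks the limit of 15 UMIs. Most VSMC lie far above the line, and the lowest of them, at sums of 17 to 23, overlap the pericytes on the horizontal axis.

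VSMC were the more deeply sampled of the 2 mural types. A VSMC had a median of 4890.5 UMIs and a pericyte 2561. The median mitochondrial share of a VSMC lay between 4.73% and 5.45% over the 4 libraries, and that of a pericyte between 2.49% and 2.99%. Markers of other cells were present in the VSMC at differing levels. The 10 astrocyte markers had the highest sum, 1566.5 CPM with none at 0, against 5601 CPM in pericytes and 5397 CPM in the other barcodes. The 12 fibroblast markers summed to 271 CPM with 2 at 0, against 2062 CPM in pericytes and 83.8 CPM in the other barcodes. The 12 endothelial markers summed to 308 CPM with 6 of them at 0, the 12 microglia and macrophage markers to 146 CPM against 17687 CPM in the other barcodes, and the 8 oligodendrocyte markers to 25.5 CPM with 4 at 0. The 8 neuron markers summed to 1078 CPM, and most of that came from 2 cells, which held 266 of the 289 neuron UMIs in the middle-age VSMC and 127 of the 154 in the first old library. A doublet score marked both of these cells and 1 other VSMC, and without the marked cells 659 genes were higher and 689 lower in VSMC than in pericytes, against 682 and 627 with them.

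The pericyte gate held a second kind of barcode. Of its 521 barcodes, 57 (10.9%) had at least 3 UMIs of the fibroblast markers Dcn, Lum, Pdgfra, Col1a1 and Slc47a1, and their median sum of Kcnj8, Higd1b and Abcc9 was 0 UMIs against 12 in the remaining 464. Such barcodes made up 7.69% of young, 9.43% of middle-age and 12% and 13.4% of old pericytes by library. Only 1 VSMC had 3 or more of these UMIs. The counts of each list are therefore also given against the 464 remaining pericytes where they change, a comparison chosen after seeing the data.

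The comparison of VSMC with pericytes asks which genes set apart these 2 neighbouring mural types within the same pools. UMIs were summed per pool and cell type, and 4439 genes were tested with edgeR's quasi-likelihood test with the pool as a block; the 13 genes of the gates were left out of the calls. A gene is called when its Benjamini-Hochberg adjusted p is under 0.05. The filter on low counts keeps a gene that enough sums of either cell type hold. A gene nearly absent from VSMC is therefore tested only if the pericyte sums hold it, and the reverse. The direction of such a gene is set in advance. VSMC had 682 genes higher (15.4% of those tested) and 627 lower (14.1%), 1309 in all (29.5%). Against the remaining pericytes, 678 were higher (16%) and 584 lower (13.8%) of 4239, 1262 in all (29.8%). The cells were chosen from the same barcodes, so the calls describe these gated groups. The 3 pools, each of another age, say little on the spread of a single gene's VSMC-to-pericyte difference. The test therefore combines the spread of each gene with that of all genes. Small adjusted p-values rest largely on this shared estimate and do not measure the spread over the 3 pools alone.

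The contractile apparatus stood out as a whole. Of the 33 genes of the contractile list, 31 could be tested, 28 were higher in VSMC (against 15.4% of all genes), none was lower, and the median log2 fold change of the list was 3.44 against −0.05 over all genes tested. Against the remaining pericytes 28 were higher and 1 lower, with a median of 3.33. The list summed to 59393 CPM in VSMC, 12704 CPM in pericytes and 1487 CPM in the other barcodes. Its fold changes reached from −0.58 to 8.54.

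Cnn1, the actin-bound calponin that marks differentiated smooth muscle, had the largest log2 fold change of the list. It was at 598, 271 and 316 CPM in young, middle-age and old VSMC and at 0, 0 and 1.22 CPM in pericytes, where a single UMI was found. The log2 fold change was 8.54 ± 0.43 (SE; edgeR adjusted p = 1.13e-10). Each SE in this text is the absolute log2 fold change divided by the square root of the test's F statistic. It is no separate estimate of the counting error of a ratio that rests on few UMIs, as here. Palld, the actin-bundling palladin, was at 1122, 735 and 858 CPM against 3.84, 4.31 and 3.64 CPM, a log2 fold change of 7.80 ± 0.26. Csrp1, a LIM protein of the cytoskeleton, was at 2094, 1347 and 1933 CPM against 3.84, 8.62 and 19.4 CPM (log2 fold change 7.17 ± 0.22). In all 3 genes the lowest VSMC pool lay above the highest pericyte pool, which was so for 15.9% of all genes tested in this direction.

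The other members of the list at the head of the ranking were the Z-disc protein Pdlim3 (log2 fold change 6.97), the actin-binding nexilin gene Nexn (5.73), the actin nucleator leiomodin 1 gene Lmod1 (5.18), the LIM protein gene Csrp2 (5.11) and the adaptor gene Sorbs2 (4.88). Each kept its call in all 15 fits that varied the normalization, filter, tool, block, gates or pools.

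Among the force-generating genes the ratios were smaller, and pericytes also held these transcripts. The genes from here to the end of the mural comparison that lie outside the fixed rule for named genes were named for their role after their values were seen. Myl9, the regulatory myosin light chain of smooth muscle, was at 10419, 8306 and 9480 CPM in VSMC and at 2087, 2023 and 2057 CPM in pericytes. Its log2 fold change was 2.31 ± 0.11 (edgeR adjusted p = 4.96e-11). Mylk, the kinase that phosphorylates this light chain, was at 2817, 2053 and 2308 CPM against 292, 276 and 356 CPM (log2 fold change 3.03 ± 0.13). Tpm2, a tropomyosin of muscle filaments, was at 5584, 4218 and 5582 CPM against 150, 177 and 241 CPM (4.83 ± 0.14). Des, the intermediate filament desmin, was at 1072, 676 and 1088 CPM against 150, 134 and 159 CPM (2.78 ± 0.16). The pools of the 2 cell types did not overlap for any of these 4 genes.

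Mustn1 (4.68), the myosin phosphatase subunit Ppp1r12b (4.01), Crip1 (3.75), Tpm1 (3.44) and Myl6 (2.9) were also higher. Tpm4, Cald1 and Vcl did not pass the test. Caldesmon (Cald1) was at 3265, 3841 and 3320 CPM in VSMC and 4415, 4238 and 3855 CPM in pericytes, a log2 fold change of −0.12 ± 0.11 (edgeR adjusted p = 0.477), but was called higher (0.45) with no exclusions on pericytes. Vinculin (Vcl) stood at a log2 fold change of −0.06 ± 0.16 (edgeR adjusted p = 0.844). Tpm4 stood at −0.58 ± 0.24 (edgeR adjusted p = 0.0816) and was called lower against the remaining pericytes (−0.68). Actg2 had 10 UMIs in VSMC and Ldb3 had 23, against 0 and 2 in pericytes, and neither could be tested.

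**Figure D2:**
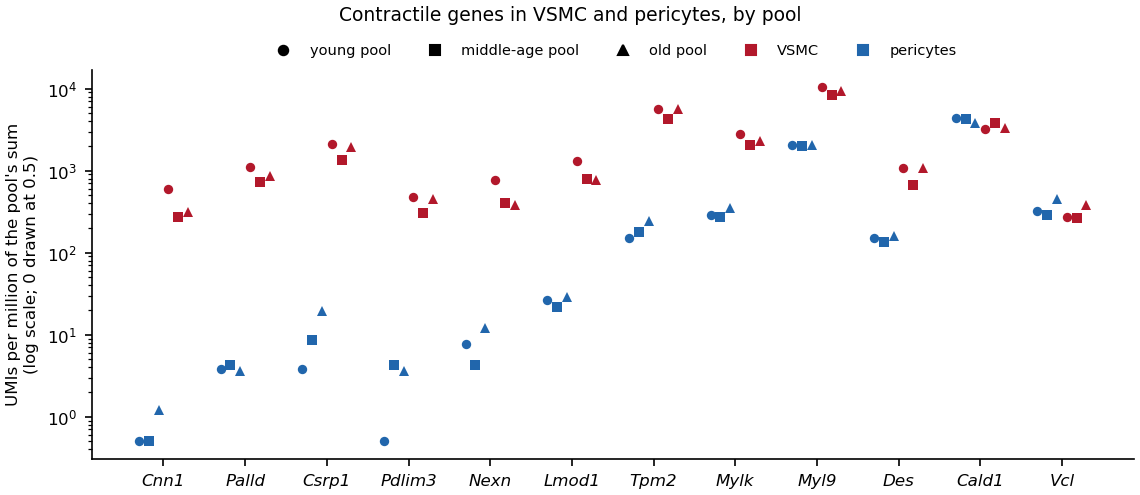
Levels of 12 contractile genes in the young (circles), middle-age (squares) and old (triangles) pools, in CPM of each pool's sum on a log scale with 0 drawn at 0.5; VSMC are red and pericytes blue. The 3 red points lie above the 3 blue ones for the genes from Cnn1 to Des, whereas for Cald1 the VSMC lie slightly lower and for Vcl the pools overlap.

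The promoters of the list were searched for the CArG box because its factors drive these genes. Only the exact pattern was counted: CC, then 6 bases of A or T, then GG. The windows were the 250 bases before to 50 bases after each transcription start in the RefSeq set for GRCm38.p6, read on both strands, and 30 of the 33 genes had a window. A match was found in 6 of 41 windows of the list (14.6%), in 5 genes, against 535 of all 32851 windows (1.63%). Among genes called higher in VSMC 17 of 720 windows held a match (2.36%), and among those called lower 7 of 626 (1.12%). The Acta2 window held no exact match, and boxes that depart from the pattern by a base were not searched for in any window. A match describes letters in a window and is not a mapped binding site. The 5 matches are printed with 10 bases on either side, read on the strand of the gene, with the box in capitals.
Myl9, chr2:156775293-156775322, plus strand: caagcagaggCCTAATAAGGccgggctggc
Myl6, chr10:128493040-128493069, minus strand: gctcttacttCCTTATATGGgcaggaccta
Filip1l, chr16:57549170-57549199, plus strand: atgccgcgcgCCTTATAAGGctgagcggtg
Vcl, chr14:20929161-20929190, plus strand: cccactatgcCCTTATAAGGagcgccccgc
Ldb3, chr14:34588697-34588726, minus strand: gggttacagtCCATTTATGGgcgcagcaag
The boxes begin 161 bases upstream of the annotated start in Myl9, 50 in Myl6, 62 in Filip1l, 227 in Vcl and 35 in Ldb3. Myl9, Myl6 and Filip1l were called higher in VSMC, Vcl was not called and Ldb3 was not tested, so a box within this window went with each of these outcomes.

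Of the 30 genes of calcium handling and ion channels 18 could be tested. In VSMC 8 were higher and 2 lower, against 15.4% and 14.1% of all genes tested, and the median log2 fold change was 0.61 (0.53 against the remaining pericytes, with the same counts). Pln, the phospholamban that restrains calcium reuptake, was at 1271, 1324 and 1332 CPM in VSMC and at 0, 4.31 and 4.86 CPM in pericytes. Its log2 fold change was 8.42 ± 0.26 (edgeR adjusted p = 1.66e-13), and the VSMC pools differed little among themselves. Atp2a2, the calcium pump that phospholamban acts on, was at 648, 759 and 565 CPM against 242, 192 and 169 CPM (1.90 ± 0.16). The plasma membrane pump Atp2b4 was also higher (2.33).

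The potassium channel genes Kcna5 (6.23), its beta subunit Kcnab1 (4.83) and Kcnmb1 (1.75), the smooth muscle subunit of the large-conductance calcium-activated channel, were higher in VSMC. They stood at 64.7 and 63.2 CPM for Kcna5 in the middle-age and old VSMC and at 99.7 CPM in the young, against 1 UMI in all pericytes. The calcium-store protein Casq2 was lower (−1.93), at 24.9, 64.7 and 85.8 CPM in VSMC and 368, 220 and 349 CPM in pericytes.

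A further 6 genes at the head of the ranking belong to neither list. Fbxl22, an F-box gene of muscle, was at 274, 235 and 316 CPM in VSMC with 1 UMI in all pericytes (log2 fold change 8.26 ± 0.46). Sncg, gamma-synuclein, was at 897, 1247 and 1337 CPM against 3.84, 12.9 and 6.07 CPM (7.38 ± 0.24; edgeR adjusted p = 3.53e-13). The Ras-related Rasd1 (5.70), the calcineurin regulator Rcan2 (5.67), Map3k7cl (5.56) and the tetraspanin Cd9 (4.90) followed. Map3k7cl had 172 UMIs in VSMC, 14 in pericytes and 0.0124 CPM in the other barcodes, whereas Cd9 was at 453 CPM in the other barcodes. All 6 genes kept their call in all 15 fits.

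Of the 25 transcription factors of the mural list 17 could be tested. In each direction 4 were called, against 15.4% and 14.1% of all genes tested, with a median log2 fold change of 0.11, and against the remaining pericytes 3 were higher and 4 lower. Myocd, the cofactor of serum response factor, could not be tested: it had 25 UMIs in VSMC, at 49.9, 99.999 and 27.1 CPM by pool, and none in pericytes, which makes it at least 29.9-fold higher when the pericytes are set at 3 UMIs over the group. Srf itself had 5 of the 431530 UMIs of the VSMC and 7 of the 1547907 UMIs of the pericytes. Klf4, a zinc-finger factor that responds to vessel injury, was at 125, 453 and 280 CPM against 38.4, 40.9 and 99.6 CPM (2.35 ± 0.30), a call kept in 14 of 15 fits. Mef2c (0.66, 12 of 15 fits) and Ebf1 (0.44, 8 of 15 fits) were also called higher, Ebf1 not against the remaining pericytes. The forkhead genes Foxf2 (−2.81) and Foxd1 (−1.35) and the zinc-finger gene Zic1 (−1.42) were lower, with Zic1 at 74.8, 218 and 172 CPM in VSMC and 506, 536 and 516 CPM in pericytes.

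Notch signalling maintains mural cells through the receptor Notch3 and ligands on neighbouring cells. Of the 12 genes of this list 8 could be tested, 3 were higher and 2 lower (against 15.4% and 14.1% of all genes tested), and the median log2 fold change was 0.46. Set against the remaining pericytes, 3 were higher and 3 lower, with a median of 0.28. Nrip2 was at 224, 371 and 280 CPM in VSMC against 15.3, 21.5 and 17 CPM in pericytes (4.16 ± 0.26; edgeR adjusted p = 1.65e-09). The ligand gene Jag1 (1.28, 13 of 15 fits) and the target Hes1 (1.10) were higher, and Notch1 (−1.35) and the target Heyl (−0.96, 13 of 15 fits) were lower. Notch3 was at 299, 318 and 275 CPM against 399, 381 and 470 CPM, a log2 fold change of −0.38 ± 0.17 (edgeR adjusted p = 0.112). It was called lower against the remaining pericytes (−0.57) and stood at 0.28, not called, with no exclusions on pericytes.

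Receptors and cyclic nucleotide genes, which carry the signals that narrow or widen a vessel, went both ways. Of 42 genes 20 could be tested, 6 were higher and 9 lower (against 15.4% and 14.1% of all genes tested), and the median log2 fold change was −0.21. Against the remaining pericytes 18 could be tested, 6 were higher and 8 lower, with a median of −0.41. Higher in VSMC were the phosphodiesterase Pde3a (3.02), which was at 224, 424 and 307 CPM against 61.4, 30.2 and 49.8 CPM, the CGRP receptor subunit Ramp1 (2.76) and the neuropeptide Y receptor Npy1r (2.46). The cGMP-dependent kinase Prkg1 (1.23, 14 of 15 fits) and the cGMP phosphodiesterase Pde5a (1.13) were higher as well. The soluble guanylate cyclase subunit Gucy1b1 (−0.84, 14 of 15 fits), the thromboxane receptor Tbxa2r (−1.71), the sphingosine-1-phosphate receptor S1pr3 (−0.85, 12 of 15 fits) and Pde8b (−2.81) were lower. Ramp2, the adrenomedullin receptor subunit, had 1 UMI in VSMC against 167 in pericytes (−5.20), and against the remaining pericytes it could not be tested.

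Genes of the extracellular matrix went both ways. Of 37 matrix genes 21 could be tested, 8 in each direction (against 15.4% and 14.1% of all genes tested), with a median log2 fold change of 0.09. With the remaining pericytes as the comparison 6 were higher and 8 lower of 20, and the median turned to −0.11. The laminin chains Lama2 (−5.01), Lama4 (−2.91) and Lamc1 (−1.57), the nidogen Nid1 (−2.51) and the collagen IV chain Col4a1 (−0.87, 14 of 15 fits) were lower. Lamb1 had 0 UMIs in VSMC and 80 in pericytes, at least 7.43-fold lower with the VSMC set at 3 UMIs. Lama5, in contrast, was at 49.9, 64.7 and 63.2 CPM in VSMC against 0, 2.15 and 3.64 CPM (4.53 ± 0.63), so that the laminin chains differed in opposite directions. Timp3, an inhibitor of matrix proteases, was at 797.6, 1005.9 and 957.5 CPM against 364, 353 and 384 CPM (1.49 ± 0.14), and the protease Adamts1 was higher as well (2.75). Sparc (−0.76) and Bgn (−0.73, 12 of 15 fits) were lower.

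Caveolae, the membrane pits of smooth muscle, and adhesion genes were mostly higher. Of 23 genes 19 could be tested, 11 were higher and 3 lower (against 15.4% and 14.1% of all genes tested), and the median log2 fold change was 0.74 (0.65 against the remaining pericytes, with the same counts). Vim, the intermediate filament vimentin, was at 4487, 2729 and 3496 CPM against 150, 138 and 180 CPM (4.57 ± 0.14). The caveolar genes Cav1 (4.76), Cavin1 (3.60) and Cavin3 (3.12) were higher, Cavin1 at 548, 988 and 917 CPM against 72.9, 66.8 and 89.9 CPM. The cadherin Cdh6 (5.57), the integrin Itga8 (2.88) and Mcam (1.89) were higher, whereas Cdh2 (−2.89), the N-cadherin of pericyte contacts, and Itga4 (−1.84) were lower.

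Pericyte genes that the gate did not use were lower in VSMC nearly throughout. Of the 25 genes of this list 21 could be tested, 19 were lower (against 14.1% of all genes), 1 was higher, and the median log2 fold change was −3.13. Against the remaining pericytes 19 were lower and none higher, with a median of −3.25. The list summed to 5114 CPM in VSMC and 29473 CPM in pericytes. Ptn, the growth factor pleiotrophin, was at 49.9, 106 and 122 CPM in VSMC against 11400.5, 11292 and 10627 CPM in pericytes, a log2 fold change of −6.53 ± 0.18 (edgeR adjusted p = 6.83e-14). Atp13a5 (−5.05), Art3 (−4.30), Pla1a (−6.17) and the nucleotide receptor P2ry14 (−2.88) were also lower. Genes that mark mural cells in general differed less: Rgs5, a regulator of G-protein signalling, was at 1471, 1988 and 2276 CPM against 6395, 6485 and 6133 CPM (−1.56 ± 0.13), and Pdgfrb, the receptor by which mural cells are recruited, at 274, 276 and 262 CPM against 963, 909 and 954 CPM (−1.66 ± 0.15). Ndufa4l2 was lower too (−1.62). Slc38a11 was called higher (0.58) and Cspg4, the proteoglycan NG2, lower (−0.46), each in 8 of 15 fits, Cspg4 stood at 0.22, not called, with no exclusions on pericytes, and Slc38a11 was not called against the remaining pericytes.

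The lowest genes of VSMC were mostly without a single UMI. Of the 15 with the largest fall, 14 had 0 UMIs in the 84 cells. The transporters Slc22a8 and Slc6a13 had 547 and 696 UMIs in pericytes and were at least 50.8-fold and 64.7-fold lower in VSMC, with VSMC set at 3 UMIs. The TGF-beta family ligands Nodal and Bmp4 had 356 and 158 UMIs in pericytes, at least 33.1-fold and 14.7-fold more than in VSMC. Emcn (at least 23.2-fold), Aif1l (18.9-fold), Spaar (11.5-fold), Saa1 (11.0-fold) and the neuropeptide gene Nts (11.0-fold) completed this group, and all were called lower against the remaining pericytes as well. Emcn is also on the endothelial list, of which 4 of 12 genes could be tested. All 4 were lower in VSMC (14.1% of all genes), with a median log2 fold change of −5.15. The other 8 held too few UMIs to test, and Emcn, without a UMI in VSMC, could be tested only through its pericyte counts. The count of 4 therefore rests in part on the filter. Against the remaining pericytes 3 of 3 were lower (13.8%). The part of endothelial transcripts in the pericyte sums was not tested.

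Other genes of these 15 came largely from the fibroblast-marker barcodes. Ptgds, prostaglandin D synthase, had 15363 UMIs in the pericyte gate, of which 15362 lay in the 57 fibroblast-marker barcodes, and it was at 9.27 CPM in VSMC against 0.769 CPM in the remaining pericytes. Edn3 had 285 of its 288 UMIs there, Ndnf 154 of 165, Spp1 650 of 722 and Apod 4171 of 4285. Ptgds, Edn3, Ndnf and Spp1 could not be tested against the remaining pericytes. Apod, an apolipoprotein, and Itih5 had no UMI in VSMC and were called lower in both comparisons. With VSMC set at 3 UMIs they were at least 398-fold and 73.7-fold lower than in the whole pericyte gate, and the remaining pericytes held 114 and 204 UMIs of them. The fibroblast list moved in the same way: 7 of its 12 genes could be tested and 6 were lower (14.1% of all genes), but 1 of 3 against the remaining pericytes (13.8%), where Col1a2 changed from −1.23 with a call to −0.31 without one.

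**Figure D3:**
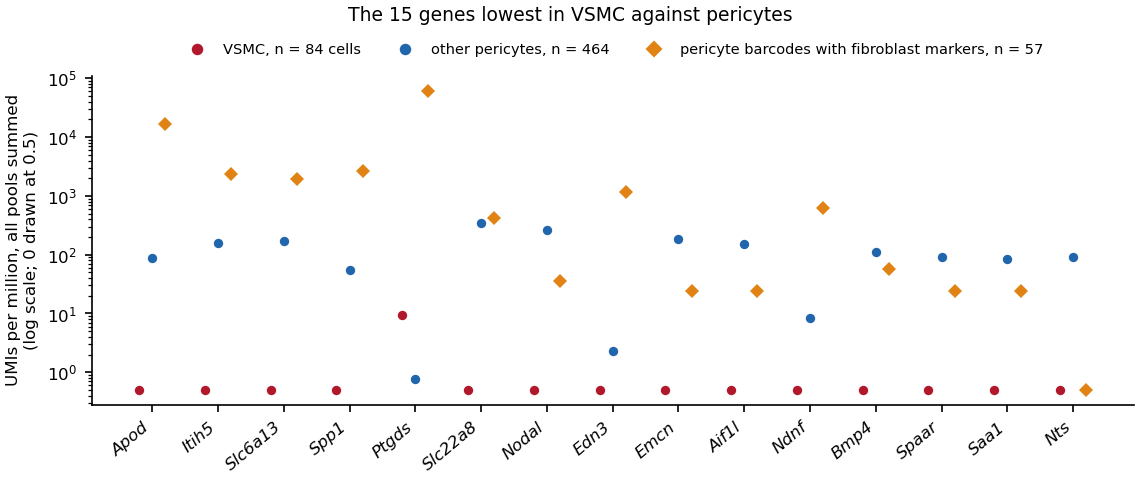
The 15 genes that were lowest in VSMC relative to pericytes, in CPM over all pools on a log scale with 0 drawn at 0.5, for the 84 VSMC (red), the 464 remaining pericytes (blue) and the 57 pericyte barcodes with fibroblast markers (orange). The red points lie at 0 except for Ptgds, and the orange points lie far above the blue ones for Apod, Spp1, Ptgds, Edn3 and Ndnf but under them for Nodal and Emcn.

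Growth factor genes were mixed. Of 31 genes 19 could be tested, 8 were higher and 7 lower (against 15.4% and 14.1% of all genes tested), with a median log2 fold change of 0.35. Against the remaining pericytes 17 could be tested, 8 were higher and 6 lower, with a median of 0.72. Tgfb3 was at 249, 70.6 and 76.8 CPM in VSMC against 7.67, 12.9 and 7.29 CPM (3.52 ± 0.49) and Tgfb2 was higher too (1.47, 14 of 15 fits). The TGF-beta target Id3 was at 1620, 888 and 1427 CPM against 449, 323 and 247 CPM (2.13 ± 0.18). Pdgfa (2.20) and Crim1 (2.60) were higher, and Igf2 (−6.26) was lower in all fits, with 3 UMIs in VSMC. Igfbp2 was called lower (−2.57), but 22 of its 25 VSMC UMIs came from 1 young cell, the pools overlapped, and it could not be tested against the remaining pericytes.

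Inflammatory genes were also mixed, with 13 of 28 tested, 5 higher and 6 lower (against 15.4% and 14.1% of all genes tested) and a median log2 fold change of 0.12. When set against the remaining pericytes 14 could be tested with the same counts, and the median turned to −0.12. The chemokine Cxcl12 was at 0, 29.4 and 18.1 CPM in VSMC against 541, 347 and 361 CPM in pericytes (−4.00 ± 0.33). The class I antigen presentation genes B2m (−1.43), H2-D1 (−1.25) and H2-K1 (−0.87, 13 of 15 fits) were lower, B2m at 49.9, 99.999 and 63.2 CPM against 184, 246 and 224 CPM, and Ifitm3 was lower in 13 of 15 fits (−0.77). The protease inhibitors Serpine2 (1.66) and Serping1 (0.80, 13 of 15 fits) were higher.

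Immediate-early genes and mitochondrial transcripts were higher in VSMC. Of 21 immediate-early and stress genes 19 could be tested, 13 were higher and 1 lower (against 15.4% and 14.1% of all genes tested), and the median log2 fold change was 1.09 (1.055 against the remaining pericytes, with the same counts). Fos was at 4013, 4688 and 3645 CPM against 1116, 1586 and 2234 CPM (1.44 ± 0.15), Junb was higher (1.67), and Socs3 (2.91), Nr4a1 (2.88), Zfp36 (1.86) and Btg2 (1.93) were called in all 15 fits. The heat shock gene Hspa1a was lower (−1.57). This list summed to 17936 CPM in the other barcodes, above the 15760 CPM of the VSMC and the 8572 CPM of the pericytes. Klf2 (2.43) and Atf3 (2.18) were called higher here but stood at −0.27 and −0.06 when pericytes were not cleared of endothelial, microglial and astrocytic UMIs. Of the 13 mitochondrial genes 12 could be tested and 11 were higher, with log2 fold changes from 0.70 to 1.22, for example mt-Nd4 at 5584, 5212 and 4553 CPM against 2862, 2426 and 2115 CPM (1.19 ± 0.11). The greater depth and mitochondrial share of VSMC barcodes go with these values, and their part in them was not tested.

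**Figure D4:**
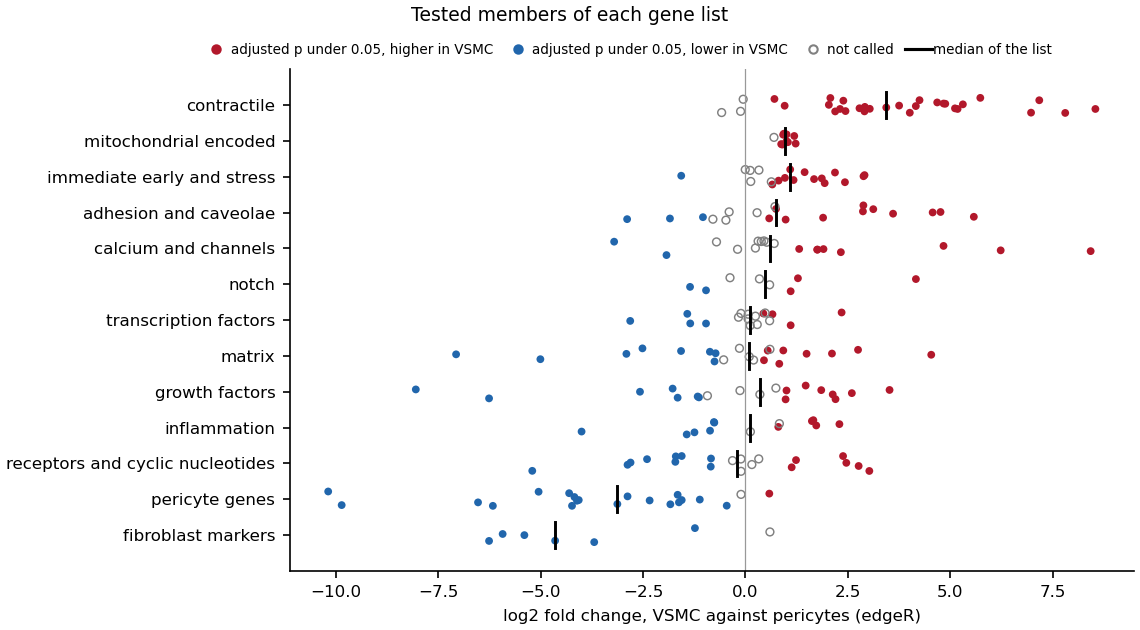
Log2 fold change of VSMC against pericytes for each tested gene of 13 lists, red where the adjusted p is under 0.05 and the gene is higher in VSMC, blue where it is lower and open grey where it was not called; black bars are list medians. The medians run from 3.44 for the contractile genes to −3.13 for the pericyte genes and −4.65 for the fibroblast markers, and the transcription factors, matrix genes and inflammatory genes lie on both sides of 0.

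The VSMC can be described by their marker sum, which also chose them, so the values below describe the gate and were not tested. The 17 cells with sums under 60 UMIs had the contractile list, which does not hold the 3 gate genes, at 34107 CPM and the 67 cells with 60 or more at 62527 CPM. The pericyte list was at 14605 and 3938 CPM, and the inflammatory list at 4728 and 1943 CPM. Markers of other cells moved with this split: the astrocyte markers were at 2774 CPM in the lower and 1417 CPM in the higher cells, the fibroblast markers at 609 and 229 CPM and the endothelial markers at 462 and 289 CPM, whereas the neuron markers were at 315 and 1172 CPM. The 17 cells were also shallower, with a median of 2748 UMIs against 5368. The part of these markers and of depth in the other values was not tested, and the cells of a pool are not replicates.

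Age could be described in VSMC but not tested, since each age was 1 pool. Their share of kept barcodes was 7 of 5803 in the young library (0.121%, exact 95% binomial interval 0.0485 to 0.248%), 31 of 10364 in the middle-age library (0.299%, 0.203 to 0.424%) and 27 of 13261 and 19 of 9689 in the old libraries (0.204%, 0.134 to 0.296%, and 0.196%, 0.118 to 0.306%). The interval of the young library overlaps each of the others. As a share of VSMC and pericytes together the values were 8.24%, 16.3%, 15.3% and 12.4% in the same order. The contractile list stood at 68598 CPM in the 7 young, 54482 CPM in the 31 middle-age and 61497 CPM in the 46 old cells, and 1 young cell held 32.5% of the young UMIs of this list. Cnn1 was at 598 CPM (95% Poisson interval 383 to 890) in the young, 271 (198 to 361) in the middle-age and 316 (246 to 399) in the old VSMC, with 13 of the 24 young UMIs from 1 cell. Lmod1 was at 1321 (990 to 1728), 799.99 (671 to 946) and 777 (665 to 902) CPM, with 22 of the 53 young UMIs from 1 cell. Pln was level, at 1271, 1324 and 1332 CPM. The immediate-early list was at 15803, 18465 and 13676 CPM.

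The spatial areas offer samples that the cell gate did not use. In each of the 16 areas the 1% of spots with the highest share of Acta2, Tagln and Myh11 UMIs, 441 of 43050 spots in all, was compared with the other spots, with the area as a block. These spots hold 1 to 201 marker UMIs and 799 to 3338 CPM of the 3 genes against 13.1 to 27.7 CPM elsewhere, values that chose them and are not a result. Between 71.8% and 88.6% of the spots of an area had no marker UMI. The marker-rich spots were shallower in each of the 16 areas. Their median per area was 9429.5 to 23314 UMIs, against 12687 to 27255 over all spots with at least 500 genes. The part of this depth in the values below was not tested. Of 14826 genes tested, 3784 were higher in the marker-rich spots (25.5%) and 4253 lower (28.7%), 8037 in all (54.2%). Scaled by DESeq2 size factors instead of TMM, 56.8% of the calls were higher rather than 47.1%, with the median of all genes 0.09 higher on the log2 scale. Spots mix cells, so fewer cells of a type and less RNA per cell cannot be told apart, and the areas share mice, which makes these p-values too small for animals.

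The contractile genes were high in these spots. Of 32 tested 31 were higher, none was lower (against 25.5% and 28.7% of all genes), and the median log2 fold change was 2.71 against −0.06 over all genes. Cnn1 was at 14 to 90.5 CPM in the marker-rich spots, with a median of 20.2, and at 0.146 to 0.451 CPM in the others (log2 fold change 6.37 ± 0.26; edgeR adjusted p = 2.01e-21). Lmod1 (5.64 ± 0.23) and Pln (5.32 ± 0.23) were higher in 16 of 16 areas, as were Myl9 (4.78), Mustn1 (4.57), Kcnmb1 (4.24), Palld (2.92) and Sncg (2.40). Fbxl22 was higher in 15 of 16 areas (4.02). Csrp1 differed less here (0.89) than between the cell types.

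Lists with mostly higher calls in the VSMC went different ways in the spots, against 25.5% of all genes higher and 28.7% lower. Of 23 adhesion and caveolae genes 17 were higher and 2 lower, with a median log2 fold change of 1.075. Of 29 calcium and channel genes 6 were higher and 17 lower, with a median log2 fold change of −0.63, of 21 immediate-early and stress genes 9 were higher and 7 lower, with a median of 0.17, and of 13 mitochondrial genes none was higher and 3 lower (1 higher and 1 lower with DESeq2 size factors). Rasd1 was at 7.03 to 34.6 CPM in the marker-rich spots against 11.0 to 38.4 CPM in the others, lower in 16 of 16 areas (−0.70 ± 0.13), and Rcan2 (−0.20), Kcnab1 (−0.91) and Atp2a2 (−0.52) were called lower too. In the other barcodes of the cell libraries Atp2a2 stood at 174 CPM and Rcan2 at 11.7 CPM. Of the neuron markers none was higher and 7 of 8 were lower, with a median log2 fold change of −1.05.

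The spots also held genes of many other cell types. Against 25.5% of all genes higher, all 11 tested fibroblast markers were higher, with a median log2 fold change of 3.83, as were 35 of 36 matrix genes, 11 of 12 endothelial markers, 21 of 23 pericyte genes, 22 of 22 inflammatory genes, 8 of 8 oligodendrocyte markers, 11 of 12 microglia and macrophage markers, 9 of 10 astrocyte markers and 4 of 5 haemoglobin and red cell genes. Several genes with 0 to 4 UMIs over all VSMC in the cell libraries were higher in these spots, among them Slc6a13 (4.09), Ptgds (3.05), Apod (2.47), Bmp4 (3.14) and Edn3 (2.99), while Kcnj8, Abcc9, Nodal, Emcn and Nts were not called. The fibroblast markers summed to 692 to 2636 CPM in the marker-rich spots and 62.6 to 153 CPM in the others. Their part in the contractile values was not tested.

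Whole areas allowed the only test of age, with areas rather than animals as the replicates. Each area counted as 1 independent sample, although the old areas outnumber the old mice. No fit had a term for the animal, so all p-values between ages, here and below, can be too small as statements on mice. UMIs were summed over all spots of an area with at least 500 genes and 17396 genes were tested in 1 fit over the 3 ages. Counting both directions, 13.1% of them were called between old and young areas, 7.57% between middle-age and young areas and 4.33% between old and middle-age areas. With the area number as a block these shares were 7.15%, 9.52% and 1.41%. Acta2 was at 17.96, 18.5, 19.5 and 18.1 CPM in the 4 young areas and at 10.8, 16.7, 12.2 and 15.4 CPM in the 4 middle-age areas, while the 8 old areas ran from 14.5 to 27.6 CPM with a median of 19.9. The old areas overlapped those of both other ages. Markers of other cells were also lower in middle-age than in young areas: 4 of 12 fibroblast markers were lower and none higher (7 of 11 lower with the area number as a block), as were 2 of 12 endothelial markers and 6 of 37 matrix genes (11 with the block), against 4.18% of all genes lower (5.62% with the block). Of 13 mitochondrial genes 2 were lower and none higher there (7 and none with the block). In old against middle-age areas 5 of the 13 were higher and none lower, against 2.55% and 1.79% of all genes. Between old and middle-age areas 5 of 12 microglia and macrophage markers were higher (2 with the block), against 2.55% of all genes (0.996%), and the 5 haemoglobin and red cell genes had a median log2 fold change of 1.499, with none called and all 5 called higher under the block. The part of these cells and transcripts in the values of the smooth muscle genes was not tested. The log2 fold change of Acta2 was 0.62 ± 0.15 for old against middle-age (edgeR adjusted p = 0.0298; with the area number as a block, which keeps the areas whose numbers both ages share, 0.0347), and −0.49 ± 0.17 for middle-age against young (edgeR adjusted p = 0.0931; blocked 0.0298, a call). Old and young did not differ beyond the spread (0.13 ± 0.15; edgeR adjusted p = 0.633). Without middle-age area 1, 3 or 4 the old against middle-age difference was 0.52, 0.57 or 0.68 and lost its call.

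Cnn1, Tagln and Myh11 also had their lowest median in the middle-age areas. Cnn1 was at 0.698, 0.439, 0.795 and 0.515 CPM in the young areas, at 0.338, 0.444, 0.308 and 0.403 CPM in the middle-age areas and at 0.385 to 0.912 CPM in the old ones, with 15 to 54 UMIs per area. It was higher in old than in middle-age areas (0.85 ± 0.23; edgeR adjusted p = 0.0448), but not with the block (adjusted p = 0.181) nor without any single middle-age area (0.77 to 0.94). Lmod1 was lower in middle-age than in young areas (−0.87 ± 0.24; edgeR adjusted p = 0.0343; blocked 0.123) and higher in old than in middle-age ones (0.81 ± 0.21; edgeR adjusted p = 0.0406; blocked 0.142); the first call was kept only without young area 4 or middle-age area 4 (−1.08 for the latter) and the second only without middle-age area 4 (1.02). With no filter on low counts neither Lmod1 call nor the Cnn1 call held (−0.87, 0.81 and 0.84). Pln was lower in middle-age than in young areas (−0.82 ± 0.19; edgeR adjusted p = 0.0168; blocked 0.0214), except without young area 4 (−0.67) or middle-age area 1 (−0.80). Tagln, at medians of 6.58, 4.59 and 6.89 CPM, and Myh11, at 4.05, 3.49 and 4.70 CPM, were not called between ages by edgeR, with or without the block. DESeq2 called Myh11 higher in old than in middle-age areas (log2 fold change 0.59).

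Few genes of the contractile list were called between ages. Of 32 genes tested 1 was higher and 1 lower in old against young areas (6.2% and 6.87% of all genes), 0 and 3 in middle-age against young (3.39% and 4.18%), and 4 and 0 in old against middle-age (2.55% and 1.79%). With the area number as a block the counts were 1 and 1 (3.13% and 4.02% of all genes), 0 and 4 (3.89% and 5.62%), and 1 and 0 (0.996% and 0.415%). The list summed to 1519 to 1731 CPM in young, 1502 to 1759 CPM in middle-age and 1512 to 1848 CPM in old areas, ranges that overlap. Over all ages it stood at 1502 to 1587 CPM in the odd-numbered areas and at 1667 to 1848 CPM in the even-numbered ones. Whether section position goes with the area number was not tested. In the spots that were not marker-rich the list stood at 1485 to 1828 CPM.

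**Figure D5:**
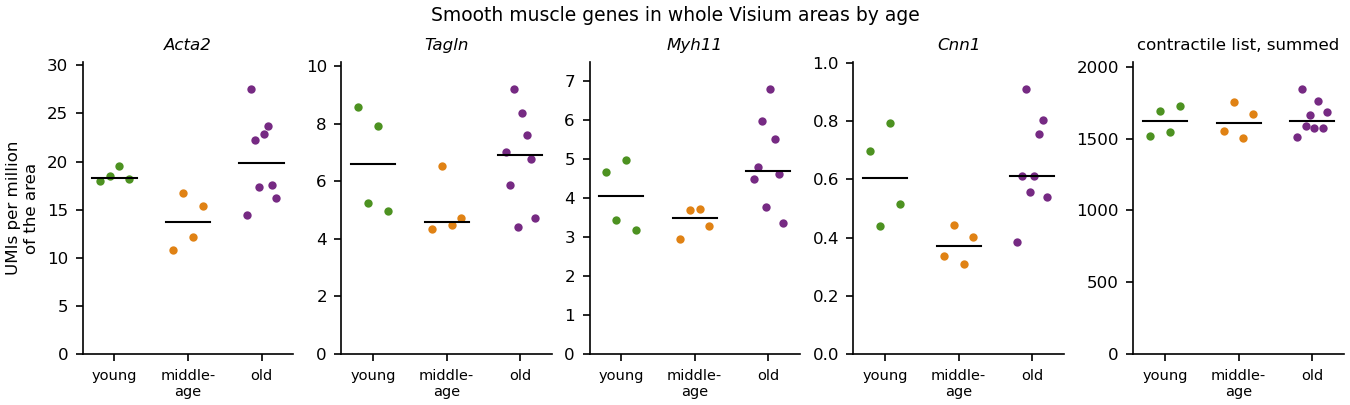
Levels in whole spatial areas in CPM, 1 point per area (4 young, 4 middle-age, 8 old) with black lines at the medians, for Acta2, Tagln, Myh11, Cnn1 and the contractile list summed; every vertical axis starts at 0. The middle-age median is the lowest in the 4 gene panels, and the summed list ranges overlap.

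Among the genes with no UMI in VSMC, Slc6a13, Bmp4 and Edn3 had calls between ages in the areas. The other genes of this kind are not given by age. No share of them can thus be set against all genes, of which 13.1% were called between old and young areas and 7.57% between middle-age and young areas. Slc6a13 was lower in old than in young areas (−0.67 ± 0.20; edgeR adjusted p = 0.0349; blocked 0.0196), at medians of 5.21 against 8.33 CPM. Between middle-age and young areas it stood at −0.68 (edgeR adjusted p = 0.0889), a call with the block (−0.63; adjusted p = 0.0356) and with DESeq2 (adjusted p = 0.04). In old against young areas 3 of 12 fibroblast markers were lower too (4 with the block; 6.87% and 4.02% of all genes), and the 5 haemoglobin and red cell genes had a median log2 fold change of 1.49, with none called and all 5 called higher under the block. Of 12 microglia and macrophage markers 7 were higher and 1 lower, against 6.2% and 6.87% of all genes. With the block 6 were higher and 2 lower, against 3.13% and 4.02%. The part of these cells in the value was not tested. Bmp4 was lower in middle-age than in young areas (−0.99 ± 0.16; edgeR adjusted p = 0.00171; blocked 0.0132) and in old than in young areas (−0.70 ± 0.13; edgeR adjusted p = 0.00299), the latter not with the block (adjusted p = 0.0634). Edn3 was higher in old than in young areas (0.55 ± 0.14; edgeR adjusted p = 0.0154), again not with the block (adjusted p = 0.0887). Slc6a13 lost its call without young area 1 or 3 (−0.52 and −0.51) and Edn3 without young area 1 or 2 (0.45 and 0.48).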

How the data were processed

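UMI counts per gene and barcode or spot, as deposited by the authors, were used: 4 droplet libraries (3′ v3.1 chemistry) and 16 spatial areas, 32285 genes each. The file headers name Cell Ranger 6.0.2 and Space Ranger 1.2.0, and the submitters' processing notes name mm10. No normalization was applied by the authors to these values.

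Counts were summed per pool and cell type, or per area and class of spot, and tested with edgeR 4.0.16 (filterByExpr, TMM, quasi-likelihood F test, Benjamini-Hochberg under 0.05) in R 4.3.3; alternatives were DESeq2 1.42.0, its size factors, no filter, with or without the block, other gates, doublets removed, samples left out and, chosen after seeing the data, pericytes without fibroblast-marker barcodes. The 2 old libraries come from the same animals and were summed. The exclusions of the VSMC gate were applied to pericytes as well, which left 521 of the 845 that pass without them. Barcodes with the highest Scrublet scores (scanpy 1.11.5), at 0.8% per 1000 barcodes, were removed as doublets only in an alternative. Intervals are exact (Poisson for sums, Clopper-Pearson for shares) and cover counting error only.

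The members and gene lists were chosen with earlier results of these data known. Named genes were the gate genes, per list up to 6 called members with the largest change and at least 100 UMIs in the higher cell type, list members not called that a role needed, and the 15 most positive and 15 most negative called genes with that many UMIs and the same direction in all 3 pools. Sums of the same pool came from the same animals, so the pool was a block. Deviations of same-numbered areas correlated in all 12 pairs (r = 0.384 to 0.737), and the area number, which comes from the sample titles, was taken as the block. Areas of different numbers were not correlated, so these values do not show that the number pairs areas. The blocked fits with old areas also leave out those whose number no other age has. Section position was not a separate term in any fit. On simulated counts the mural test recovered 41% of genes changed 2-fold and 79% of those changed 4-fold among 4448, the spot test 69% and 95%, and the old against young test 82% and 96%. These counts were independent negative binomial draws with an assumed dispersion and the same mean profile in both groups apart from the changed genes. They hold no shared mice or section position, so the shares are not the power on the real samples. Depth per sample: 49936831 to 69890756 UMIs in 6454 to 14274 barcodes per library and 2321 to 3263 spots of at least 500 genes per area. Motifs were searched in RefSeq promoter windows of GRCm38.p6. The values of 1 gene of the channel list are not reported here.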

Additional observations from a re-analysis of the deposited data

How the results depend on the processing

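Of 143 named genes in the comparison of VSMC with pericytes, 112 kept their direction and their side of the threshold in every setting that gave them a value; some could not be tested in some settings. The count of 1309 called genes fell to 751 with DESeq2 (417 higher, 334 lower) and ranged from 797 without the old pool to 1510 without the young pool. It was 1033 without the middle-age pool, 1159 and 1125 without 1 old library, 1330 without the pool block and between 1262 and 1709 under the other settings. With no exclusions on pericytes the log2 fold changes of Atf3 (−0.057), Klf2 (−0.27), Cald1 (0.45), Vcl (0.55), Notch3 (0.28) and Cspg4 (0.22) turned over, and with single pools or libraries left out that of Vcl ran from −0.15 to 0.019, the latter without the first old library. In the spots Nodal turned over with DESeq2 (0.11), and 35 of 38 genes held throughout. With the area number as a replicate block, the whole-area counts moved from 2274 to 1213 for old against young, from 1317 to 1621 for middle-age against young and from 754 to 238 for old against middle-age, where DESeq2 called 1210; Tagln (−0.017, old against young) and Slc6a13 (−0.0011, old against middle-age) turned over under the block. Leaving out single young or middle-age areas (the 8 old areas were not left out in turn) gave 1269 to 1962, 608 to 1149 and 280 to 494 called genes, with the lowest counts without young area 1 and, in the other comparisons, without middle-age area 1. In these fits the old against young values ran from −0.098 to 0.15 for Tagln, −0.049 to 0.24 for Cnn1 and −0.19 to 0.092 for Lmod1, and from −0.11 to 0.076 for old against middle-age Slc6a13. As a share of VSMC and pericytes together, VSMC were 8.24%, 16.3%, 15.3% and 12.4% by library and 13.9% in the old pool. The causes of these shifts were not tested. Depth limits the young VSMC most, with 40118 UMIs over 7 cells. For the folds given as at least, a gene at 0 UMIs in all VSMC was set at 3 UMIs, or 6.95 CPM. This is a chosen value and not an upper confidence limit.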
